A study of Mus musculus with 2 samples.

Results

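The NK cells described here are 157 of 2478 cells from scRNAseq of CD45+ brain leukocytes, 87 of 1271 in the WT library and 70 of 1207 in the twi library. They were chosen by UMI counts: a sum of at least 2 over the receptor genes *Ncr1*, *Klra4*, *Klra8*, *Klre1* and *Klrb1c*, none of *Cd3d* or *Cd3e*, fewer than 2 of the B cell genes *Cd79a* and *Cd79b*, under 1% of UMIs from the neutrophil genes *S100a8* and *S100a9*, and at most 15% mitochondrial UMIs. Twitcher (twi) mice are *galc*-/- and lack galactosylceramidase, the lysosomal enzyme that breaks down galactosylceramide and psychosine, and the WT mice were their *galc*+/+ littermates. Both genotypes were on the C57Bl/6 background (C57BL/6J in the study's methods), untreated, and taken at p21. Brains of several animals per genotype were pooled, CD45+ cells were sorted, and 1 library per genotype was made with 10x Genomics 3′ v2 chemistry, where a unique molecular identifier (UMI) marks each captured transcript. No cell can be traced to an animal, so there is no replicate error: no test between genotypes was made, and every interval is a 95% interval for counting error only.

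NK cells are innate lymphocytes that kill infected or altered cells with perforin and granzymes and that secrete interferon-γ and chemokines. Their activity is set by inhibitory and activating receptors for MHC class I and its relatives, among them the Ly49 (*Klra*) and NKG2 (*Klrc*, *Klrd1*, *Klrk1*) families, and in mice they pass from CD27+ to CD11b+ stages as they mature under the T-box factors EOMES and T-bet. ILC1s are tissue-resident relatives that share *Ncr1* and *Klrb1c* with NK cells, lack *Eomes* as a rule, and carry genes such as *Cxcr6* and *Itga1*. Type I interferon acts on NK cells through IFNAR1 and IFNAR2 and through IRF7, and switches on a common set of antiviral genes.

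The WT library held 3749714 UMIs in 1278 barcodes and the twi library 4807539 in 1220, and they shared 0 barcodes. *Galc* was counted with 4 UMIs in WT and 8 in twi among all kept cells and with 0 in the NK cells of either library. Counts of transcript 3′ ends cannot show the point mutation of twi, so this checks no label. NK cells made up 6.85% of WT cells (95% interval 5.52 to 8.38%) and 5.80% of twi cells (4.55 to 7.27%), a ratio of 0.847 (0.610 to 1.17). The other lymphocyte gates were far less even. B cells, with at least 2 UMIs of *Cd79a* and *Cd79b*, made up 43.4% of WT and 12.8% of twi cells, and T cells with at least 2 UMIs of the same receptor genes made up 2.05% and 12.9%. With B cells and cells rich in neutrophil transcripts left out of the denominator, the NK share ratio was 0.394. NK cells were deeper in twi. WT had 263676 UMIs in all and a median of 2754 per cell (991 to 10712), and twi 253103 UMIs and a median of 3038 (1097 to 12810). The upper quartiles were 3347 and 4215.

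**Figure D1:**
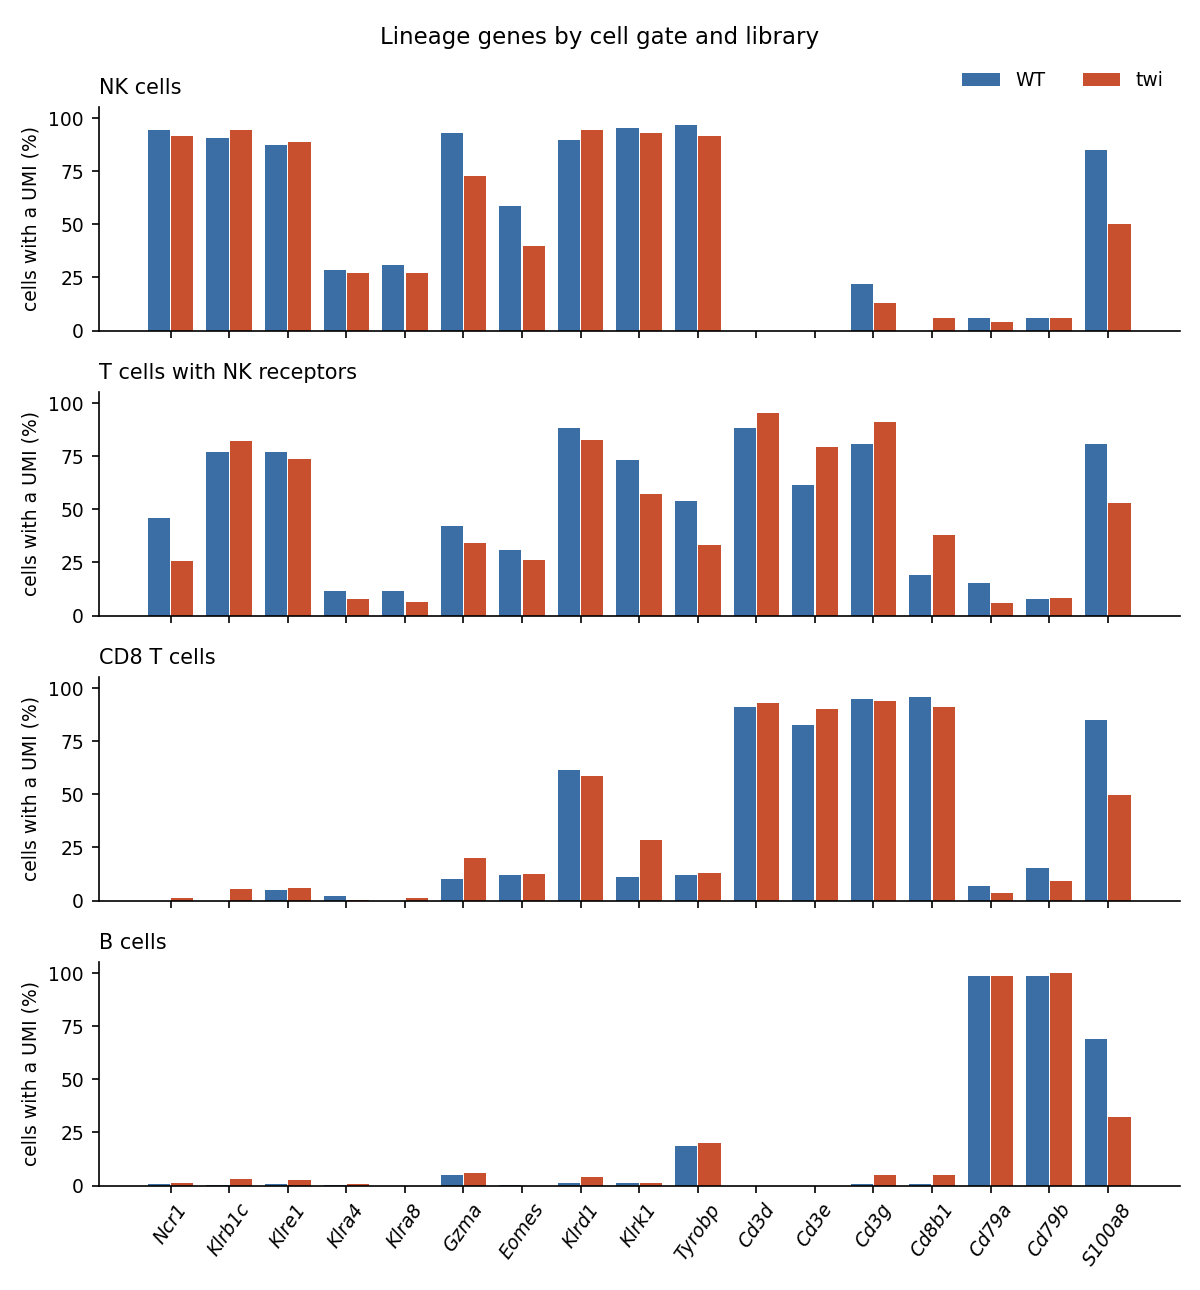
Share of cells with at least 1 UMI of each lineage gene (y axis, %) in 4 gates, with WT in blue and twi in red. The 5 receptor genes, *Cd3d*, *Cd3e*, *Cd79a*, *Cd79b*, *Cd8b1* and *S100a8* were used to make the gates. *Gzma*, *Eomes*, *Klrd1*, *Klrk1* and *Tyrobp* were not, and each was seen in a larger share of NK cells than of B cells in both libraries.

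The label was checked against B cells with NK genes that the gate did not use. *Klrk1*, which encodes NKG2D, was seen in 95.4% of WT and 92.9% of twi NK cells and in 1.45% and 1.29% of B cells. *Klrd1*, which encodes CD94, was seen in 89.7% and 94.3% of NK cells and in 1.09% and 3.87% of B cells, and *Nkg7*, a granule membrane protein, in every NK cell of both libraries. These genes do not set NK cells apart from T cells with NK receptors, where *Nkg7* was seen in 96.2% (WT) and 97.4% (twi) of cells, *Klrd1* in 88.5% and 82.7% and *Klrk1* in 73.1% and 57.1%. *Eomes* was seen in 58.6% of WT and 40.0% of twi NK cells. The T cell genes *Cd8a*, *Cd8b1*, *Cd4*, *Cd5*, *Cd6* and *Themis*, not used by the gate, had at least 1 UMI in 3 of 87 WT and 7 of 70 twi cells, and *Cd3g* in 19 and 9 cells. The T cell receptor constant genes are not among the symbols of the files, so they check nothing. A receptor sum of exactly 2 was found in 3 WT cells and 1 twi cell, whereas 9 WT and 8 twi cells had a sum of 1 and were left out. *Cd3d* or *Cd3e* with 1 UMI in all left out 7 WT and 20 twi cells that passed the receptor limit, and these 20 twi cells held *Gzma* at 6908 CPM (counts scaled to a total of 1000000 UMIs) and *Tyrobp* at 2207 CPM, close to the 7016 and 2639 CPM of twi cells inside the gate with a sum over 2.

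Genes were compared as CPM of the summed NK cells, for the 3509 genes with at least 20 UMIs over both libraries. A log2 ratio is that of twi over WT CPM with 0.5 UMIs added to each count. The median over all 3509 genes was -0.04. A ratio of at least 1.5 was found in 10.3% of them with twi higher and in 13.9% with twi lower, and a ratio of at least 2 in 3.51% and 3.56%. Leaving mitochondrial and ribosomal protein genes out of the totals turned the counts past 1.5-fold from 360 higher and 487 lower to 445 higher and 382 lower. The shares past 1.5-fold are largest where counts are low: of genes with 20 to 49 UMIs, 14.4% were higher and 16.8% lower, and of genes with 100 UMIs or more, 3.66% and 7.31%. Each list is therefore given by its counts and its median beside these, as a description, and a gene may stand in several lists.

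**Figure D2:**
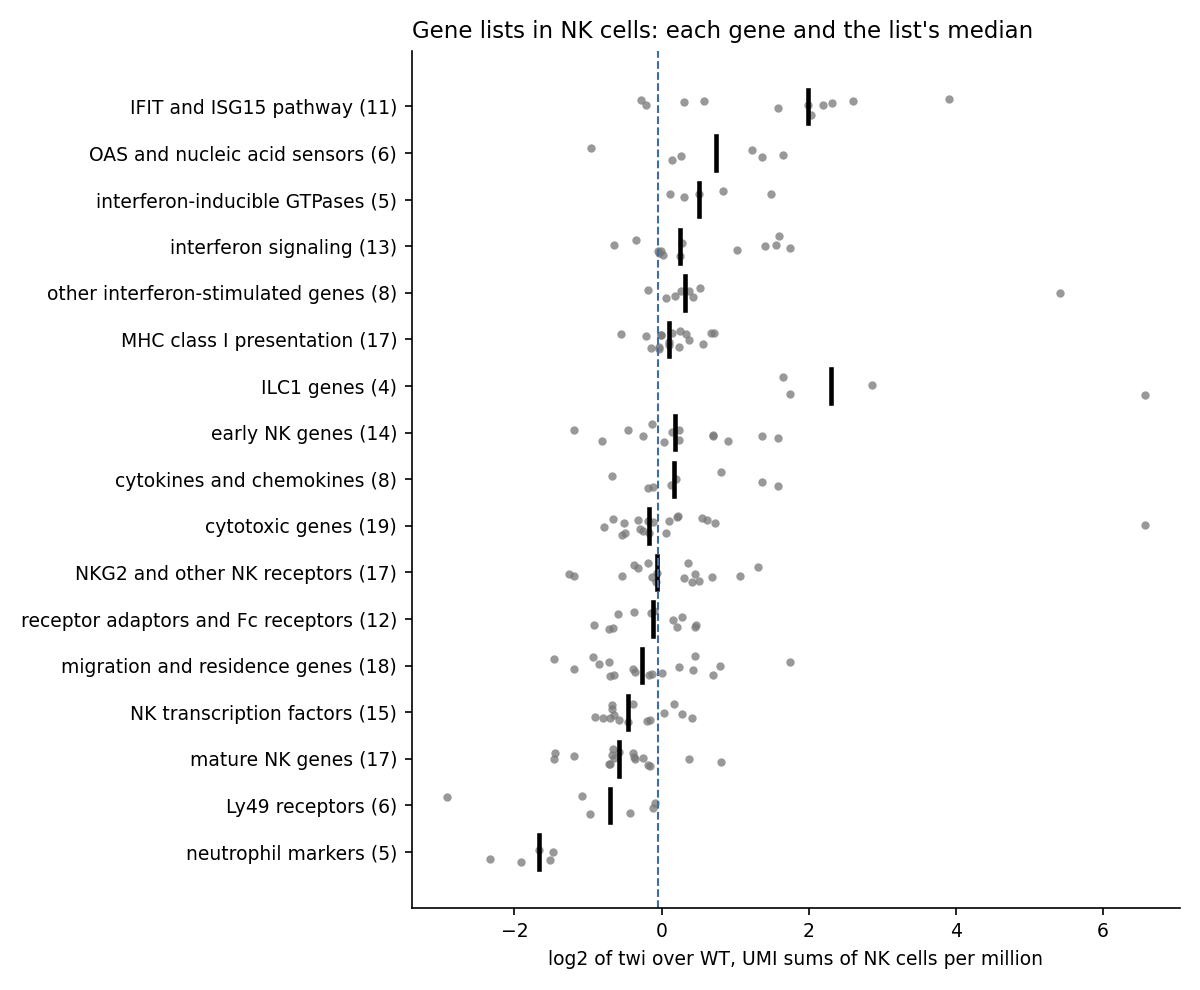
Each point is a gene with at least 20 UMIs in NK cells, placed by its log2 ratio of twi over WT CPM (x axis); bars mark list medians, the dashed line marks the median of all 3509 genes, and the number of genes is in brackets. Medians run from 2.30 for 4 ILC1 genes and 1.99 for the IFIT and ISG15 pathway to -0.70 for the Ly49 receptors and -1.67 for neutrophil markers; the points past 5 are *Gzmc* and *Ly6a*, with 1 and 0 WT UMIs. Most of the higher genes of the ILC1 and IFIT lists reach the 20-UMI minimum through twi, which can raise these medians. The Ly49 list holds 2 genes of the gate.

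Of the receptors, those of the gate are given as a description. *Ncr1*, which encodes the activating receptor NKp46, had 258 UMIs in WT and 339 in twi (979 and 1339 CPM), *Klre1* 337 and 250, *Klrb1c* 273 and 230, *Klra4* 214 and 153, and *Klra8* 128 and 115. *Ncr1* was thus the member of the 5 with more CPM in twi. Of 11 Ly49 genes, 6 were tested, and all 6 lay below 0 on the log2 scale, with a median of -0.70, but *Klra4* and *Klra8* are among them and chose the cells. The other 4 are these. *Klra1* had 35 UMIs in WT and 4 in twi (133 and 15.8 CPM), and the ratio was 0.119 (0.0307 to 0.333). *Klra7* had 159 and 72 UMIs, a ratio of 0.472 (0.352 to 0.627), and *Klra3* 131 and 64 UMIs, a ratio of 0.509 (0.371 to 0.691). *Klra9* stood at 206 and 182 UMIs, a ratio of 0.920 (0.750 to 1.13), and its interval includes 1. These genes lie side by side on chromosome 6 (GRCm38, from *Klra4* at chr6:130043731-130067271 to *Klra1* at chr6:130363917-130386874) and are close in sequence, so that reads may be split between them. *Klra1* was seen in 9.20% of WT and 2.86% of twi NK cells, so that few cells carry its value.

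The NKG2 group and other NK receptors did not lean to either library, with a median of -0.06 over 17 genes, 3 at least 1.5-fold higher and 2 lower in twi. *Klrd1* had 381 and 348 UMIs, a ratio of 0.952 (0.821 to 1.10), and *Klrk1* 367 and 338, a ratio of 0.960 (0.825 to 1.12). *Cd244*, a SLAM family receptor, had 32 and 65 UMIs, a ratio of 2.12 (1.37 to 3.34), and another SLAM family receptor, *Slamf7*, had 38 and 15, a ratio of 0.411 (0.210 to 0.765). Receptor adaptors and Fc receptors had a median of -0.12 over 12 genes, with 0 at least 1.5-fold higher and 4 lower. The DAP12 gene *Tyrobp* stood at 3409 CPM in WT and 2627 in twi, with a ratio of 0.771 (0.696 to 0.853), and the Fc receptor γ chain gene *Fcer1g* at 2560 and 2959 CPM, a ratio of 1.16 (1.04 to 1.28). The low-affinity Fc receptor gene *Fcgr3*, which encodes CD16, had 32 and 16 UMIs, a ratio of 0.521 (0.267 to 0.978).

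Most maturation genes were lower in the twi library when all NK cells were summed. Of 18 genes of mature NK cells, 17 were tested, 15 lay below 0, 8 were at least 1.5-fold lower and 1 higher, and the median was -0.57. *Itgam*, which encodes CD11b, had 24 UMIs in WT and 8 in twi, for a ratio of 0.347 (0.135 to 0.799). Neutrophil markers in the same NK cells had a sum ratio of 0.305 (0.241 to 0.383), and the part of transcripts of other cells in *Itgam* was not tested. *Klrg1*, an inhibitory receptor of late NK cells, had 41 and 17 UMIs, a ratio of 0.432 (0.230 to 0.777). *Cma1*, a chymase gene on chromosome 14 seen in mature mouse NK cells, had 55 and 19 UMIs, a ratio of 0.360 (0.202 to 0.616). The counting intervals of these 3 genes lie below 1, while those of *S1pr5*, the sphingosine phosphate receptor used for exit from marrow and nodes (0.606, 0.354 to 1.01), *Zeb2* (0.899, 0.587 to 1.37) and *Prf1* (0.839, 0.496 to 1.41) include it. With cells holding 2 or more UMIs of 12 ILC1 genes left out, an alternative added after seeing the data, the list median was -0.14 with 7 of 17 genes above 0, the log2 ratio of *Klrg1* was -0.48 (-1.44 to 0.35) in place of -1.19, and that of *Cma1* was -0.66 (-1.52 to 0.09) in place of -1.45. With each cell thinned to 1000 UMIs before the gate, *Cma1* was at -0.87 (-2.25 to 0.32). The gate then held 85 WT and 80 twi cells, so that cells as well as depth changed. *S100a4* was the member past 1.5-fold the other way, with 20 and 34 UMIs and a ratio of 1.77 (0.991 to 3.25).

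Genes of early NK cells had no common direction, with a median of 0.18 over 14 genes, 5 at least 1.5-fold higher and 2 lower. Among the lower ones was *Cd27*, with 55 and 30 UMIs and a ratio of 0.568 (0.352 to 0.902). Among the 5 higher ones were *Thy1* at 64 and 115 UMIs, a ratio of 1.87 (1.37 to 2.58), and the cytokine genes *Ltb* and *Xcl1*, given below with the other cytokines. By transcripts, *Cd27* without *Itgam* was seen in 27 of 87 WT cells and 22 of 70 twi cells, 31.0% (21.6 to 41.9%) and 31.4% (20.9 to 43.6%). *Itgam* without *Cd27* was seen in 12 and 6 cells, 13.8% (7.34 to 22.9%) and 8.57% (3.21 to 17.7%), and both in 5 cells and 1 cell. The intervals of the libraries overlap for each of these shares.

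The transcription factors behind these stages had a median of -0.46 over 15 genes, 0 at least 1.5-fold higher and 6 lower. *Eomes* had 88 UMIs in WT and 53 in twi (334 and 209 CPM), with a ratio of 0.627 (0.438 to 0.892), and *Tbx21*, which encodes T-bet, 53 and 34, a ratio of 0.668 (0.421 to 1.05). *Klf2*, which sustains S1P receptor expression in lymphocytes, had 424 and 251 UMIs, a ratio of 0.617 (0.526 to 0.723), and *Irf8* 169 and 103, a ratio of 0.635 (0.492 to 0.816). *Id2*, needed for the NK lineage, stood at 1612 and 1648 CPM, a ratio of 1.02 (0.891 to 1.17), and *Runx3* at 216 and 288 CPM, a ratio of 1.33 (0.931 to 1.92). Among migration genes, *S1pr4* had 62 and 31 UMIs, a ratio of 0.521 (0.327 to 0.814), the integrin gene *Itga4* 68 and 36, a ratio of 0.552 (0.358 to 0.838), and the residence-associated receptor *Cxcr6* 9 and 30, a ratio of 3.47 (1.61 to 8.32). *Ccr2* (121 and 117 UMIs) and *Cxcr3* (46 and 52 UMIs) had ratios of 1.01 and 1.18, with intervals of 0.774 to 1.31 and 0.777 to 1.79.

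**Figure D3:**
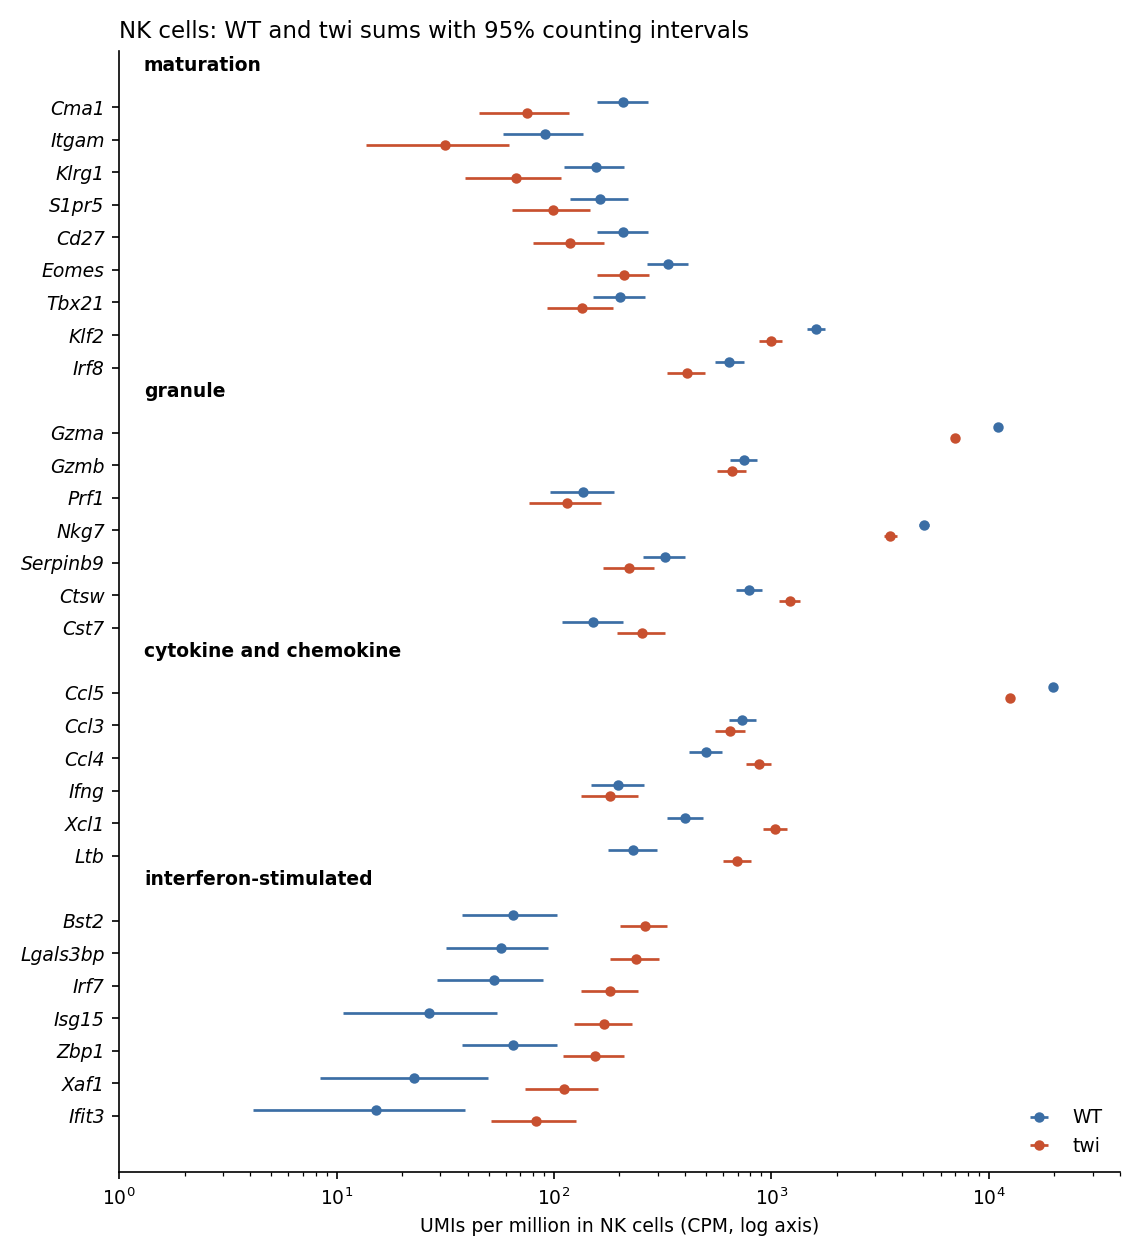
CPM of summed NK cells (x axis, log scale) for WT in blue and twi in red, with 95% counting intervals as bars. The maturation genes drawn, *Gzma* and *Ccl5* lie further left in twi. *Xcl1*, *Ltb* and the interferon-stimulated genes drawn lie further right, and *Gzmb*, *Prf1*, *Ccl3* and *Ifng* overlap. The genes drawn are a selection: of 43 tested interferon-stimulated genes, 34 lay above 0 and 9 below.

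The cytotoxic list had a median of -0.17 over 19 of its 24 genes, 3 at least 1.5-fold higher and 2 lower in twi, and this direction turned without the cells with ILC1 genes (0.14) and when *Gzma* was required (0.03), as did that of *Gzmb* (0.18 and 0.04). Its sum was lower in twi, at 21716 CPM in WT and 16855 in twi (ratio 0.776, 0.746 to 0.808), and the median per cell was 224.5 UMIs in 10000 in WT and 148 in twi. *Gzma* was its most abundant gene in both libraries. Granzyme A, encoded at chr13:113093825-113100981 on the minus strand, had 2898 UMIs in WT and 1768 in twi (10991 and 6985 CPM), with a ratio of 0.636 (0.599 to 0.675). *Gzma* was seen in 81 of 87 WT cells, 93.1% (85.6 to 97.4%), and in 51 of 70 twi cells, 72.9% (60.9 to 82.8%), and in cells thinned to 1000 UMIs in 90.7% and 70.0%. B cells, which should lack it, showed it in 5.08% (WT, median of 2011 UMIs) and 5.81% (twi, median of 2210 UMIs). Per cell, the median was 117 UMIs of *Gzma* in 10000 in WT and 47.1 in twi, with 6 WT and 19 twi cells at 0, and the highest values were 273 and 345. The twi library thus held both cells without *Gzma* and 3 cells above every WT cell.

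The other effector genes had no common direction. *Gzmb* had 197 and 167 UMIs (747 and 660 CPM), a ratio of 0.883 (0.714 to 1.09), and *Prf1*, the perforin gene, 36 and 29. *Nkg7* stood at 5021 and 3528 CPM, a ratio of 0.703 (0.645 to 0.765), and *Serpinb9*, an inhibitor of granzyme B, had 85 and 56 UMIs, a ratio of 0.686 (0.481 to 0.973). The NK protease gene *Ctsw* (cathepsin W) stood at 793 and 1213 CPM, a ratio of 1.53 (1.28 to 1.83), and *Cst7* (cystatin F), an inhibitor of granule cathepsins, at 152 and 253 CPM, a ratio of 1.67 (1.11 to 2.54). *Gzmc* had 1 UMI in WT and 136 in twi, with a ratio of 142 (25 to 5637), but 121 of the 136 came from 1 cell and the other 15 from 5 cells. *Gzmc* also lies in a cluster of related granzyme genes on chromosome 14, where reads may be split. *Fasl*, which encodes Fas ligand, had 38 and 39 UMIs.

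Cytokine and chemokine genes did not share a direction. *Ccl5*, a chemokine gene of cytotoxic lymphocytes at chr11:83525778-83530518 on the minus strand, had 5218 UMIs in WT and 3153 in twi (19789 and 12457 CPM), with a ratio of 0.630 (0.602 to 0.658). *Xcl1*, which encodes a chemokine for XCR1+ dendritic cells, had 106 and 263 UMIs (402 and 1039 CPM), a ratio of 2.58 (2.06 to 3.27), and *Ltb*, lymphotoxin β, 61 and 176 UMIs (231 and 695 CPM), a ratio of 3.01 (2.23 to 4.09). With each cell thinned to 1000 UMIs before the gate, the log2 ratio of *Xcl1* was 0.29 (-0.31 to 0.90) in place of 1.37, and as a mean over cells it was 0.69. The 3 twi cells with the most *Xcl1* held 56, 31 and 24 of its UMIs. *Xcl1* was seen in 43.7% of WT and 60% of twi NK cells and in 0.545% and 0.645% of B cells. *Ccl4* had 132 and 222 UMIs, a ratio of 1.75 (1.41 to 2.19), in 39.1% and 38.6% of cells, while its neighbour *Ccl3* had 194 and 164 UMIs, a ratio of 0.881 (0.711 to 1.09). *Ifng* did not separate the libraries, with 52 and 46 UMIs and a ratio of 0.922 (0.606 to 1.40). Both receptor chains for IL-18 were lower in twi, *Il18r1* at 56 and 24 UMIs (0.446, 0.265 to 0.732) and *Il18rap* at 57 and 31 (0.567, 0.354 to 0.893), while *Il2rb*, which transmits IL-15, was at a ratio of 1.25 with an interval that includes 1, as was *Il2rg* at 1.34 (0.985 to 1.84).

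Interferon-stimulated genes were higher in the twi library. Of 93 listed genes, 92 are in the files and 43 reached 20 UMIs. Of these, 34 lay above 0, 18 were at least 1.5-fold higher and 2 lower, and the median was 0.42, beside 10.3% higher and a median of -0.04 for all genes. Of the 18, 12 had 20 to 49 UMIs, 6 had 50 to 99 and 0 of the 9 list genes with 100 UMIs or more were among them. A gene with few WT UMIs reaches the minimum only through twi, and 6 of the 18 had 10 or more WT UMIs. The 49 genes under the minimum held 108 UMIs in WT and 293 in twi. The whole list made up 9295 CPM in WT and 11798 in twi, with a ratio of 1.27 (1.2 to 1.34). Per cell this was 28.2 and 42.7 UMIs, which also carry the greater depth of twi cells. With each cell thinned to 1000 UMIs before the gate, 17 list genes were left and the median was 0.09. That gate held 85 WT and 80 twi cells, so this value reflects other cells as well as lower depth.

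The IFIT and ISG15 group had a median of 1.99 over 11 genes, 7 of them at least 1.5-fold higher and 0 lower. Only 11 of its 25 genes reached the minimum, several of them through twi, which can raise this median. The group's median at another minimum was not computed. The whole interferon-stimulated list had medians of 0.83 with at least 1 UMI and 0.30 with at least 50 UMIs. The sum over all 25 genes of the group was 2389 CPM in WT and 3809 in twi (ratio 1.59, 1.44 to 1.77), with *Shisa5* the most abundant at 388 and 459 UMIs. *Bst2*, which encodes tetherin, a protein that holds budding virus on the cell, had 17 UMIs in WT and 66 in twi (64.5 and 261 CPM), with a ratio of 4.04 (2.34 to 7.35). *Lgals3bp*, galectin 3 binding protein, had 15 and 60 UMIs, a ratio of 4.17 (2.34 to 7.90), and *Isg15*, a ubiquitin-like modifier, 7 and 43, a ratio of 6.40 (2.85 to 16.9). After thinning to 1000 UMIs per cell and gating anew, where the cells also changed, *Bst2* had 7 and 14 UMIs. Its log2 ratio was 1.04 (-0.32 to 2.64) in place of 1.98. *Isg15* had 3 and 7 UMIs and 1.19 (-0.82 to 3.89) in place of 2.60, so that both intervals include 0. Without the cells with ILC1 genes the log2 ratios were 0.45 (-0.78 to 1.60) for *Bst2* and 1.39 (-0.22 to 3.20) for *Isg15*, and these intervals also include 0. *Xaf1* had 6 and 28 UMIs (4.86, 1.98 to 14.4), *Rtp4* 8 and 24 (3.12, 1.36 to 8.05) and *Ifit3* 4 and 21 (5.47, 1.85 to 21.9). *Epsti1* did not share this, with 125 and 99 UMIs and a ratio of 0.825 (0.627 to 1.08). Of the nucleic acid sensors, *Zbp1* had 17 and 39 UMIs (2.39, 1.32 to 4.51) and *Ddx58*, which encodes RIG-I, 7 and 18 (2.68, 1.07 to 7.59), while *Samhd1*, a nucleotide hydrolase, was lower in twi with 53 and 26 (0.511, 0.307 to 0.832).

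Among signaling genes, *Irf7* had 14 and 46 UMIs (53.1 and 182 CPM), a ratio of 3.42 (1.85 to 6.74), and the receptor gene *Ifnar2* 10 and 30, a ratio of 3.12 (1.49 to 7.17). Without the cells with ILC1 genes the log2 ratio of *Irf7* was 0.94 (-0.21 to 2.11) in place of 1.74. *Ifnar1* (14 and 13 UMIs), *Ifngr1* (200 and 195), *Irf1* (44 and 42) and *Irf9* (12 and 14) had ratios between 0.967 and 1.22. The interferon-inducible GTPases had a median of 0.50 over 5 genes, led by *Gbp4* with 9 and 25 UMIs, a ratio of 2.89 (1.31 to 7.04). *Ly6a*, which encodes Sca-1, had 0 UMIs in WT and 20 in twi, at least 6.95-fold higher when WT is set at 3 UMIs per library. MHC class I presentation genes stayed near the background, with a median of 0.10 over 17 genes, 2 at least 1.5-fold higher and 0 lower: *H2-K1* had a ratio of 0.994 (0.904 to 1.09), *H2-D1* of 0.902 (0.834 to 0.977) and *B2m* of 1.19 (1.10 to 1.29), and the 2 higher ones were the peptide transporter gene *Tap1* (1.66, 0.945 to 2.97) and *Tapbp* (1.59, 1.12 to 2.28).

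The promoters of 4 of these genes, chosen as examples, show what an interferon response element looks like, and each holds the motif within this stretch. *Socs1*, *Irgm1* and *Trim30a*, also at least 1.5-fold higher in twi, hold the motif there too and are not printed. *Xaf1* and *Lgals3bp*, with ratios as high as that of *Bst2*, do not hold it. Each stretch is the 160 bases before the first transcribed base, from RefSeq (GRCm38.p6), on the gene's strand from 5′ to 3′, with matches to GAAANNGAAA or its reverse complement TTTCNNTTTC in capitals. *Isg15* is on the minus strand (chr4:156200819-156200978), as is *Bst2* (chr8:71537473-71537632), and *Ifit3* (chr19:34583369-34583528) and *Ifit1* (chr19:34640729-34640888) are on the plus strand.
Isg15: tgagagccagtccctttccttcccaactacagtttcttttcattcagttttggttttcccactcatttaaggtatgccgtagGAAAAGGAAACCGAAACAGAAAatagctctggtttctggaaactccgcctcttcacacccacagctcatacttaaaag
Bst2: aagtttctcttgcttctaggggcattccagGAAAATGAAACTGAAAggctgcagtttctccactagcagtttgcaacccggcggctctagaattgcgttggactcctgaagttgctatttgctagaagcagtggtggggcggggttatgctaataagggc
Ifit3: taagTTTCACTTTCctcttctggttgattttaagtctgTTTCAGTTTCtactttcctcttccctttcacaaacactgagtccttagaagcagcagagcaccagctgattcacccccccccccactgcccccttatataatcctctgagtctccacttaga
Ifit1: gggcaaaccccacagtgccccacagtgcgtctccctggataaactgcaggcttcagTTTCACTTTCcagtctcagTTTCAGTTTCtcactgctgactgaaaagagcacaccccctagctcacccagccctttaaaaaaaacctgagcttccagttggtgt

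In *Isg15* 3 overlapping matches run together as GAAAAGGAAACCGAAACAGAAA, starting 78 bases before the start, and in *Bst2* 2 overlap as GAAAATGAAACTGAAA, starting 130 bases before it. *Ifit3* and *Ifit1* each hold TTTCACTTTC followed by TTTCAGTTTC, with the first starting 156 and 104 bases before the start. Over windows from 250 bases before to 50 after the start, either orientation of the motif was found for 3.99% of 27025 genes, for 4.38% of the tested genes with a window, for 14 of 35 tested interferon-stimulated genes with a window and for 8 of the 12 among those at least 1.5-fold higher in twi. *Irf7*, *Lgals3bp*, *Xaf1* and *Ifnar2* had no match, which says only that these letters are not in the window. *Ifit1*, with 1 UMI in WT and 21 in twi, had a ratio of 21.9 (3.52 to 905).

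Counted per cell, interferon-stimulated UMIs in 10000 ran from 31.8 over a median of 94.7 to 147 in WT and from 40.5 over a median of 104 to 541 in twi. The libraries overlapped in most cells, and 14 of 70 twi cells, 20% (11.4 to 31.3%), lay above the highest WT cell. Without the 5 highest cells of each library, an alternative added after seeing the data, the list median was 0.27.

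**Figure D4:**
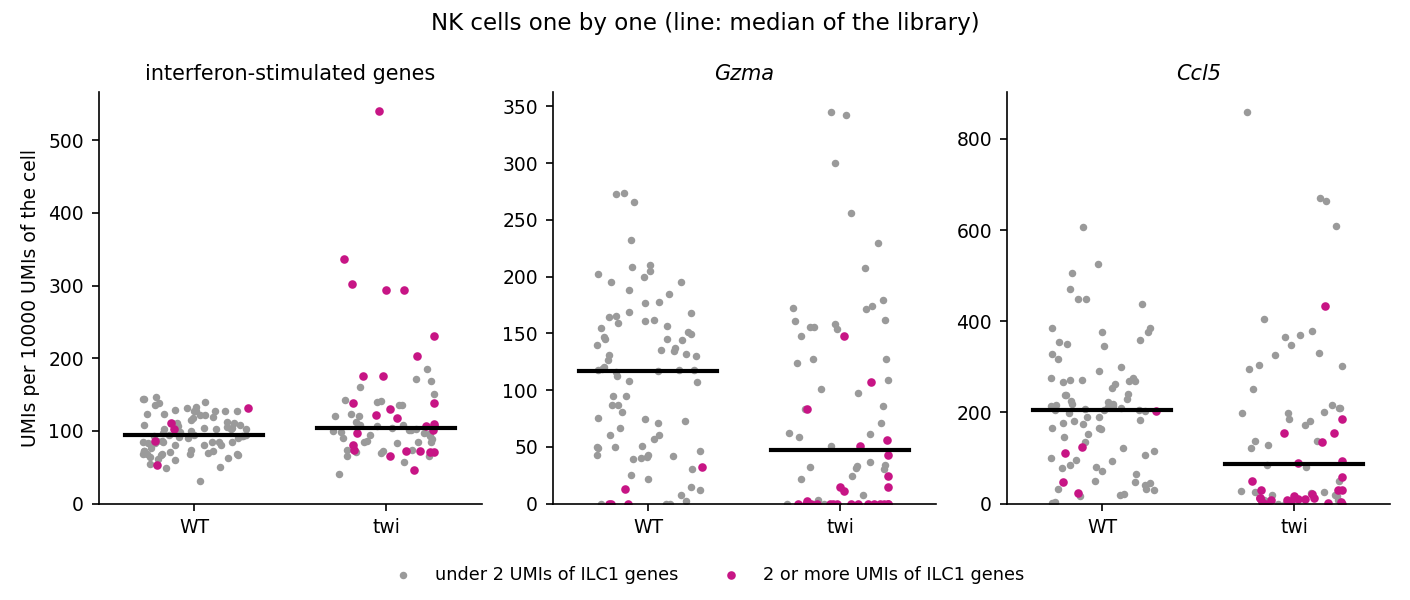
Each point is 1 NK cell, in UMIs per 10000 of its own UMIs (y axis), by library, with black lines at the medians and cells with 2 or more UMIs of 12 ILC1 genes in magenta. Most twi cells lie within the WT range for interferon-stimulated genes, with 14 above it, and magenta cells make up 16 of the 19 twi cells without *Gzma*.

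The twi cells were not uniform in genes that mark ILC1s. The 12 listed genes summed to 41 UMIs in WT and 275 in twi (ratio 6.99, 5.02 to 9.95), of which *Gzmc* gave 136. A single twi cell held 128 of the 275, 121 of them of *Gzmc*, so the sum rests heavily on it. The 4 that reached 20 UMIs over both libraries did so through twi, so their median of 2.30 was bound to be high. Besides *Gzmc* and *Cxcr6*, these were the ion channel genes *Tmem176a* (3 and 24 UMIs) and *Tmem176b* (7 and 22 UMIs), with ratios of 8.33 (2.53 to 43.2) and 3.27 (1.35 to 9.07). Cells with at least 2 UMIs of the list were 5 of 87 in WT, 5.75% (1.89 to 12.9%), and 27 of 70 in twi, 38.6% (27.2 to 51.0%), and in thinned cells 2.33% and 12.9%. The limit of 2 was set after the data had been seen and cuts a range: 13 WT and 15 twi cells had 1 UMI, and 1 WT and 6 twi cells had exactly 2. *Il7r*, another member, was the most abundant of the list in WT, with 12 UMIs, and ran the other way. It had 7 UMIs in the 5 WT cells past the limit, beside 4 in the 27 twi cells and 2 in the other 43. The WT and twi cells past the limit thus differ in the members they hold. They are called by their genes and not by a type.

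Within twi, the 27 cells with ILC1 genes and the other 43 differed in many of the genes above, all cells being from the same library. *Gzma* stood at 2754 CPM (2458 to 3076) in the 27 and at 10454 (9924 to 11006) in the 43, beside 11537 (11120 to 11966) in the 82 WT cells under the limit. *Ccl5* stood at 4666, 18845 and 20382 CPM in the same order. *Eomes* stood at 96.5 CPM (48.2 to 173), 302 (218 to 408) and 352 (282 to 434). *S1pr5* had 1 UMI in the 27 cells, 24 in the 43 and 43 in the 82. For these genes the 43 twi cells were near the WT cells and the 27 were low. Of the receptor genes of the gate, *Klra8* (193 and 669 CPM) and *Klre1* (710 and 1215 CPM) were also lower in the 27 than in the 43, while *Ncr1* (1184 and 1467 CPM) and *Klrb1c* (860 and 949 CPM) were closer. The 27 cells were deeper, with a median of 4047 UMIs against 2903 in the 43 and 2760 in the 82, as a limit on a count of UMIs favors deep cells; the part of depth in these differences was not tested.

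*Xcl1* and interferon-stimulated genes ran the other way. *Xcl1* stood at 1701 CPM (1470 to 1958) in the 27 cells, 496 (386 to 628) in the 43 and 372 (300.2 to 456) in the 82 WT cells. *Bst2* stood at 474 CPM (356 to 618), 86.3 (44.6 to 151) and 64.0 (36.6 to 104), *Irf7* at 272, 108 and 56.0 CPM, and the whole interferon-stimulated list at 14041 (13362 to 14746), 9958 (9440 to 10497) and 9261 CPM (8888 to 9646). Of the 14 twi cells above every WT cell for that list, 9 were among the 27. *Lgals3bp* and *Ltb* were higher in both twi groups than in the 82 WT cells. *Lgals3bp* had 35 UMIs in the 27 cells and 25 in the 43 (180 CPM), beside 15 in the 82, and *Ltb* stood at 982, 460 and 192 CPM. The 5 WT cells with ILC1 genes are few, but *Ltb* in them, with 13 UMIs at 955.5 CPM (509 to 1634), was level with the 27 twi cells, and *Gzma*, also with 13 UMIs, was below the 2754 CPM of those cells. Their interferon-stimulated list stood at 9923 CPM (8320 to 11745), below the 27 twi cells.

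**Figure D5:**
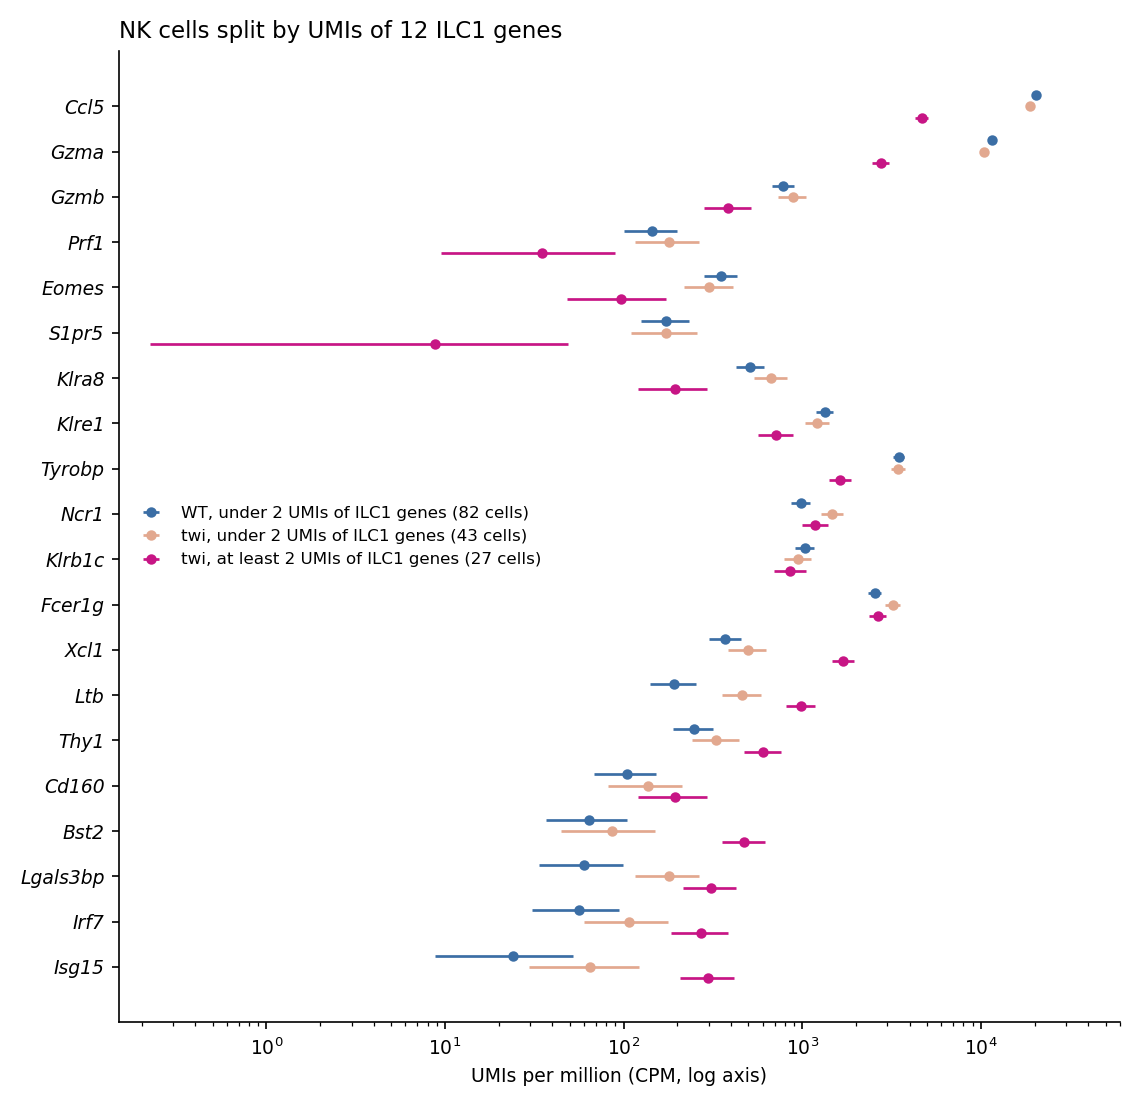
CPM (x axis, log scale) with 95% counting intervals in 82 WT cells and 43 twi cells with under 2 UMIs of ILC1 genes and in 27 twi cells with at least 2. The 27 cells lie to the left of both others for *Ccl5*, *Gzma*, *Eomes* and *S1pr5* and to the right for *Xcl1*, *Bst2* and *Isg15*; the 5 WT cells with at least 2 are not drawn.

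The list values rest on these cells to different degrees. With the cells of at least 2 ILC1 UMIs left out of both libraries, the log2 ratio of *Gzma* was -0.14 in place of -0.65 and that of *Ccl5* -0.11 in place of -0.67. The interferon-stimulated list then had a median of 0.20 with 17 of 27 genes above 0, and the NK share ratio was 0.552. Of T cell markers, the 6 genes named above were seen in 2 of the 27 cells and 5 of the 43, and *Cd3g* in 4 and 5.

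The pools differed in sex, which cannot be told apart from genotype for these sums. *Xist* without a transcript of the Y genes *Ddx3y*, *Eif2s3y*, *Kdm5d* and *Uty* was found in 0 of 87 WT NK cells, with 3.45% as the share that a count of 0 allows, and in 30 of 70 twi NK cells, and Y transcripts without *Xist* in 36 and 18. Among cells with Y transcripts only, *Gzma* stood at 10757 CPM (10167 to 11373) in WT and 5810 (5255 to 6407) in twi, and the interferon-stimulated list at 9605 (9047 to 10187) and 14271 (13394 to 15191). Of these cells, 0 of 36 in WT and 8 of 18 in twi had at least 2 UMIs of ILC1 genes. In cells with neither kind of transcript, 51 in WT and 21 in twi, *Gzma* stood at 11172 CPM (10641 to 11723) and 9099 (8385 to 9858), and the list at 9055 (8577 to 9553) and 10284 (9524 to 11089), where the intervals overlap, and 5 of the 51 and 5 of the 21 had at least 2 UMIs of ILC1 genes. In the 30 twi cells with *Xist* only, *Gzma* stood at 6613 CPM (6150 to 7103) and the list at 11210 (10603 to 11841), and 14 of these cells had at least 2 UMIs of ILC1 genes. For *Gzma* and the list, the differences between libraries were thus smaller in cells with neither transcript than in cells with Y transcripts only. Of single interferon-stimulated genes, *Bst2* and *Isg15* shared this, and *Lgals3bp* and *Irf7* did not.

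Transcripts of other cells also differed. Neutrophil markers summed to 338 UMIs in WT NK cells and 99 in twi, a ratio of 0.305 (0.241 to 0.383), with *S100a8*, which the gate limits, the most abundant at 147 and 49 UMIs, all 8 genes present in WT and 1 at 0 in twi. Their median log2 ratio was -1.67 in NK cells and -1.43 in B cells. Microglia and macrophage markers summed to 44 and 24 UMIs, with *C1qa* and *P2ry12* at 0 in both libraries. Monocyte markers summed to 238 and 226 UMIs, led by *Ccr2*, and the dendritic cell genes *Siglech*, *Flt3* and *Xcr1* were at 0 in both. B cell markers summed to 37 and 44 UMIs, led by *Cd74* at 21 and 34. NK cells with at least 2 UMIs of *C1qa*, *C1qb*, *C1qc*, *Lyz2* and *Csf1r* were 10 of 87 in WT and 2 of 70 in twi. Without them the interferon-stimulated list had a median of 0.40, the cytotoxic list -0.18, the mature NK list -0.67 and *Gzma* a log2 ratio of -0.67, and the NK share ratio was 0.930. With hemoglobin genes, *S100a8* and *S100a9* out of the totals, an alternative added after seeing the data, the same medians were 0.42, -0.17 and -0.58. The part of transcripts of other cells beyond these 2 settings was not tested.

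The same sums were made for the other gates of these libraries. The interferon-stimulated list had a median of 0.42 in NK cells, 0.66 in T cells with NK receptors (69 genes), 0.84 in CD8 T cells (87 genes), which had *Cd3d* or *Cd3e*, *Cd8a* or *Cd8b1*, no *Cd4* and fewer than 2 receptor UMIs, and 0.18 in B cells (62 genes). Over all genes, 18.1% were at least 1.5-fold higher and 21.5% lower in T cells with NK receptors. These background shares were 20.2% and 9.32% in CD8 T cells and 9.16% and 12.8% in B cells. The cytotoxic list had medians of -0.17 in NK cells, -0.09 in T cells with NK receptors, 0.53 in CD8 T cells and -0.11 in B cells. The sum of the ILC1 genes had a ratio of 6.99 in NK cells, 1.755 (1.36 to 2.30) in T cells with NK receptors and 1.72 (1.49 to 1.99) in CD8 T cells. In B cells it was 0.769 (0.577 to 1.01). The medians of the tested ILC1 genes were not ordered in this way. They were 2.30 over 4 genes in NK cells, 0.70 over 9 in T cells with NK receptors, 2.42 over 9 in CD8 T cells and -0.53 over 4 in B cells. *Gzma* was lower in twi in NK cells and higher in CD8 T cells (235 and 386 CPM, 1.64, 1.31 to 2.07). In T cells with NK receptors it stood at 1714 and 1080 CPM (0.630, 0.534 to 0.748), but this sum joined cells that ran in opposite directions, with 2749 and 6908 CPM in the 7 WT and 20 twi cells with 1 UMI of *Cd3d* and *Cd3e* and 1513 and 448 CPM in the 19 and 136 cells with more. *Ccl5* in T cells with NK receptors and CD8 T cells was at 0.694 (0.644 to 0.748) and 2.19 (2.05 to 2.35). *Gzmb* was near WT in NK cells, and had ratios of 2.31 (1.55 to 3.61) in T cells with NK receptors and 2.92 (2.16 to 4.03) in CD8 T cells. With 1 library per genotype, no difference between gates was tested.

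Ratios far from 1 were also found for genes outside the lists, among those with a mean of at least 100 CPM. *Cited4*, a coactivator gene, had 7 and 52 UMIs (26.5 and 205 CPM), a ratio of 7.74 (3.50 to 20.2), in 8.05% and 35.7% of cells. *Coro2a*, a coronin gene, had 18 and 44 UMIs (2.55, 1.44 to 4.68), and *Mndal*, of the HIN-200 family, 37 and 90 (2.53, 1.71 to 3.82). At the other end, *Add3*, an adducin gene of the membrane skeleton, had 47 and 14 UMIs (0.310, 0.158 to 0.573), *Cdkn1a*, a cell cycle inhibitor, 43 and 13 (0.315, 0.155 to 0.597), the small GTPase gene *Rap2b* 39 and 15 (0.401, 0.205 to 0.743), the ATP synthase gene *Atp5o* 84 and 33 (0.409, 0.265 to 0.619) and the proteasome gene *Psmc6* 39 and 16 (0.427, 0.223 to 0.783). *Cited4* was again not confined to the cells with ILC1 genes, at 254 CPM in the 27 twi cells and 165 CPM in the 43.

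Further groups lay near the background or differed in part. Glycolysis genes had a median of 0.06 over 11 genes with 0 past 1.5-fold either way. Cycling cells, with at least 2 UMIs of *Mki67*, *Top2a*, *Birc5* and *Cdk1*, were 3 of 87 in WT and 4 of 70 in twi. Among immediate early and stress genes, which sample handling can also move, *Fos* had 268 and 135 UMIs (0.525, 0.423 to 0.648) and *Dusp1* 143 and 73 (0.532, 0.396 to 0.710), whereas the heat shock gene *Hspa1a* had 240 and 550 (2.39, 2.05 to 2.79) and *Junb* 443 and 421 (0.990, 0.864 to 1.13). Of the glucocorticoid-responsive genes, *Tsc22d3* had 127 and 72 UMIs, a ratio of 0.591 (0.436 to 0.795), and *Txnip* 63 and 65.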

How the data were processed

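CD45+ cells pooled from several WT or twi brains at p21 gave 1 library per genotype. The deposited values are UMI counts for each gene and barcode, not normalized; per the submitters' processing notes they used Cell Ranger 2.1.1 and mm10, and per the paper reads were aligned with STAR and barcodes kept above an adaptive UMI threshold. The labels give 1 h of digestion with collagenase and dispase, and the paper gives collagenase D. *Jaml* and *Ifi209* were not used here, and a few genes are not reported here.

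The members, gene lists and alternatives were chosen with earlier results of these data known. Barcodes with at most 15% mitochondrial UMIs were gated on UMI counts, and UMIs were summed per gate and library and given as CPM. Intervals are exact, at 95% (Poisson, conditional binomial for ratios, Clopper-Pearson for shares; scipy 1.17.1, Python 3.11.15), and cover counting error only. A count of 0 allows up to 3 UMIs, or 3 cells for a share of cells. Genes needed 20 UMIs over both libraries, and log2 ratios a pseudocount of 0.5 UMIs. Shares of cells were repeated with each cell thinned to 1000 UMIs, which left out 1 WT NK cell. For list medians, single genes and the NK share, cells were thinned before the gate. The gate on thinned counts held 85 WT and 80 twi NK cells. No doublet caller was run. Named genes are members of 29 lists with at least 20 UMIs and the 10 highest and 10 lowest ratios among genes with at least 100 CPM on average and 25 UMIs in the higher library. The steps were tested on simulated counts: over 3509 genes, intervals for NK cells held the true ratio for 94% of 200 changed genes, and 17.4% of unchanged genes passed 1.5-fold. The simulated sums were Poisson counts per gene, without the clustering in single cells seen for *Gzmc* and *Xcl1*. Coverage near 95% was therefore built in, and this checks the code and not the intervals on these data. Promoter windows are RefSeq's and gene positions GENCODE M21's, both GRCm38, matched by symbol. Alternatives covered the gate, depth, sex transcripts, scaling and count minimum.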

Additional observations from a re-analysis of the deposited data

Results flagged for a closer look

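Of 224 list genes with enough UMIs in both gates, 9 were at least 1.5-fold higher in one of NK cells and CD8 T cells and at least 1.5-fold lower in the other, as log2 of twi over WT. The difference was not tested for any of them, since there was 1 library per genotype. Over all genes, 10.3% were at least 1.5-fold higher and 13.9% lower in NK cells, and 20.2% and 9.32% in CD8 T cells. The share of all genes that runs opposite ways in these gates was not computed, so the 9 genes are a description and not an excess. The values for NK cells and then CD8 T cells were -0.67 and 1.13 for *Ccl5*, -0.65 and 0.71 for *Gzma*, -0.81 and 1.47 for *Il18rap*, -0.79 and 2.01 for the integrin gene *Itgax*, -2.92 and 3.60 for *Klra1*, -1.12 and 2.58 for *Lyz2*, -0.68 and 0.94 for *Prdm1*, 0.80 and -0.96 for *S1pr1*, and -1.25 and 1.6 for *Slamf7*. *Ccl5* and *Gzma* had 1768 or more UMIs per library in NK cells, but their NK values fell short of 1.5-fold under several settings: -0.11 and -0.14 without cells with ILC1 genes, -0.43 and -0.47 as a mean over cells, -0.58 and -0.57 with mitochondrial and ribosomal genes out of the totals, and, for *Ccl5*, -0.43 after thinning. *Klra1*, *Itgax*, *Prdm1* and *Il18rap* had 0, 1, 2 and 4 UMIs in WT CD8 T cells, and the interval of the NK ratio includes 1 for *Prdm1* and *S1pr1*. *Lyz2* is among the genes used above to count NK cells with transcripts of myeloid cells, which were 10 of 87 in WT and 2 of 70 in twi.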

How the results depend on the processing

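No paired analysis was possible because each genotype had 1 library, which also leaves no replicate to drop. Among 15 alternatives the NK share ratio kept its direction in 14 and was 1.18 with cells of Y transcripts and no *Xist* only; it was 0.394 with B cells and neutrophil-rich cells out of the denominator. The interferon-stimulated list stayed above 0 in all 22 alternatives (0.087 to 0.83), lowest after thinning; the early NK list also stayed above 0 (0.0041 to 0.27) and the mature NK list below it (-0.87 to -0.14), with -0.87 in cells of Y transcripts only. Leaving out cells with 2 or more UMIs of ILC1 genes, added after seeing the data, gave 0.20, 0.14 (reversed) and -0.14 for the interferon-stimulated, cytotoxic and mature NK lists, 0.18 for *Gzmb* (reversed) and an NK share ratio of 0.552. Requiring *Gzma*, also added, gave 0.032 for the cytotoxic list and 0.044 for *Gzmb*, both reversed. The cause of these shifts was not tested. Counts of genes at least 1.5-fold higher and lower were 132 and 177 after thinning, 156 and 275 in cells of Y transcripts only, 75 and 153 with at least 50 UMIs, and 2748 and 2889 with at least 1 UMI, where fewer or more genes are compared; at 2-fold they were 123 and 125. Thinning gave 0.15 and 0.0098 (reversed) for the interferon-stimulated and cytotoxic lists in T cells with NK receptors, and 0.86 for the cytotoxic list in CD8 T cells. Of 260 values for single genes under the alternatives that can move them, 222 moved by less than their counting interval, 36 by more, and 2 reversed. Depth limits single genes: of simulated unchanged genes at all depths tested, 17.4% passed 1.5-fold by counting error alone, without clustering in single cells.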
